A study of Mus musculus with 64 samples.

Results

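Immediate early genes are the genes that a cell switches on first after a stimulus, without making new protein beforehand. In the heart, their transcripts rise within minutes of stretch, adrenergic signals, ischaemia or handling of the tissue and then decay fast, so a single measurement catches them at 1 moment. Most encode transcription factors that go on to change slower genes. Their promoters are typically driven through MAP kinases, cyclic AMP and calcium, acting on the serum response factor and on CREB. The 10 genes followed here are Fos, Fosb, Jun, Junb, Atf3, Egr1, Klf4, Nr4a1, Ier2 and Ier3, chosen by name from 16913 genes in the deposited gene count table. All 10 were in the table.

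The samples were hearts of C57BL/6J mice, with 64 libraries that the labels number as biological replicates. Transgenic mice (TG) carried a cardiac troponin T with the delta160E deletion, cTnT-delta160E, which is a model of hypertrophic cardiomyopathy; non-transgenic mice (nTG) did not. High-intensity interval training (HIIT) lasted 6 weeks, with treadmill sessions of 31 minutes on 3 days a week, in which 4 fast intervals (85% of the mean speed reached in a graded test) alternated with 4 slow ones (50%). Sedentary mice did not run. Among males, 7 libraries were nTG sedentary, 8 nTG HIIT, 9 TG sedentary and 8 TG HIIT; among females, 8 were nTG sedentary, 10 nTG HIIT, 8 TG sedentary and 6 TG HIIT. The series text gives 7 to 9 mice per group, whereas the labels give 6 to 10. The labels used here give no age, no promoter for the transgene and no time between the last session and collection of the heart.

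The gene columns of the deposited table do not follow their names. Each lncRNA column was therefore given the gene column that correlated best with it over 389 autosomal transcripts present in both tables, and the label of the lncRNA column was used. All 64 pairs were mutual best matches, with r from 0.599 to 0.863 against at most 0.404 for the next best column, and 1 pair had the same name. With the joined columns 0 libraries contradicted their labelled sex and 0 their genotype, against 32 and 30 with columns by name. Tnnt2, which the transgene encodes, was at 2665 to 3428 CPM (counts scaled to library size) in nTG libraries and at 6903 to 12001 CPM in TG libraries. The sum of all gene counts in a library lay between 34.6 and 67.1 megacounts (M). The 6 cardiomyocyte markers summed to between 46350 and 67540 CPM in every library, so the labelled tissue and its defining markers matched. All results below rest on this join. As bulk samples, they cannot tell apart fewer cells of a type and less RNA per cell.

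The stretch just before the start of a gene can hold part of the sites through which such stimuli act, and others lie further upstream, outside these windows. It is printed here for the 4 members on which the results turn. They are Fos and Nr4a1, which rose most in single libraries, and Junb and Ier3, which differed most clearly between groups. Sequences are from RefSeq (GRCm38.p6), 5′ to 3′ on the gene's strand, and end 1 base before the annotated start. The Ier3 stretch ends earlier, where the GENCODE gene begins, and the Nr4a1 window lies inside the GENCODE gene, whose longest form starts further upstream. Capitals mark TGACG or its reverse complement CGTCA, the core of the cyclic AMP response element that CREB binds, and in Fos the TATAAA box.
Fos, chr12:85473640-85473889, + strand: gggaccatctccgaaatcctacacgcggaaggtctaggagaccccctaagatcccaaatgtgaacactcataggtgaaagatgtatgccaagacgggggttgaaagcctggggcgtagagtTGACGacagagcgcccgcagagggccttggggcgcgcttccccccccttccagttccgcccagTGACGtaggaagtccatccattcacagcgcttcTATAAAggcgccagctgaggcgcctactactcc
Nr4a1, chr15:101266596-101266845, + strand: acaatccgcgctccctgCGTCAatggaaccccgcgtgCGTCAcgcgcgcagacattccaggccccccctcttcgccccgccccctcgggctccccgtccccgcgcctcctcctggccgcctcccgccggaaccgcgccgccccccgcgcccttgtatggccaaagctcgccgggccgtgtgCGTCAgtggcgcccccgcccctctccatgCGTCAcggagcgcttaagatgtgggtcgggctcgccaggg
Junb, chr8:84978749-84978998, - strand: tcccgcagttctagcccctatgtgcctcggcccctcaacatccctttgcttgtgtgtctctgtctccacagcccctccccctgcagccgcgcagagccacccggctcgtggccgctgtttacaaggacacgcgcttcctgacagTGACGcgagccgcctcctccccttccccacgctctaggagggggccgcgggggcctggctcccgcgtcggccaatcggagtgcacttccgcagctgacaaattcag
Ier3, chr17:35821463-35821683, + strand: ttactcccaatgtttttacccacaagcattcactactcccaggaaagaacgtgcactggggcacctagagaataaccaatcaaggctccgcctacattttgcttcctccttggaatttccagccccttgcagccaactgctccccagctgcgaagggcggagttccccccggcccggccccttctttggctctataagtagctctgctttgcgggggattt

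The Nr4a1 window held 4 copies of TGACG, counted on both strands, and the Fos window held 2, which start 129 and 66 bases before the start. Junb had 1 copy and Ier3 none. RefSeq promoters were available for 8 members (not for Egr1 and Ier2), and over the 250 bases before the start 6 of the 8 held TGACG, against 17.8% of 32851 promoters of the same length. The full palindrome TGACGTCA, which contains TGACG, was in 0 of the 8 and in 1.55% of all promoters. The CArG box bound by serum response factor was in 0 of the 8 (1.47% of all), the AP-1 site TGAGTCA or TGACTCA in 0 (4.46% of all), and the EGR site GCGTGGGCG in 0 (0.536% of all). GGGCGG, bound by Sp1, was in 7 of the 8 (32.7% of all). These are matches of letters in these windows and not tests of binding.

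Members differed in how steady they were from mouse to mouse. The spread within groups, given as the SD of log2 CPM, was 0.69 for Nr4a1, 0.66 for Fosb, 0.61 for Fos, 0.54 for Atf3 and 0.45 for Egr1. For Junb, Jun, Ier3, Klf4 and Ier2 it was between 0.20 and 0.26, and the median over all genes was 0.18. Nr4a1, an orphan nuclear receptor, thus lay at percentile 96.98 of all genes and Ier2, a nuclear protein induced by growth factors, at percentile 54.95. The share of the variance that lay between the 8 groups had a median of 18.6% over the members, close to 22.9% over all genes. It was highest for Ier3 at 31.96% and lowest for Atf3 at 11.97%. Fosb had 6 to 136 counts per library, Fos 34 to 509, Nr4a1 225 to 3249 and Jun 3539 to 10205, and the part of depth in the spread was not tested. CPM is not divided by transcript length, so levels are compared within a gene and not between genes.

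**Figure D1:**
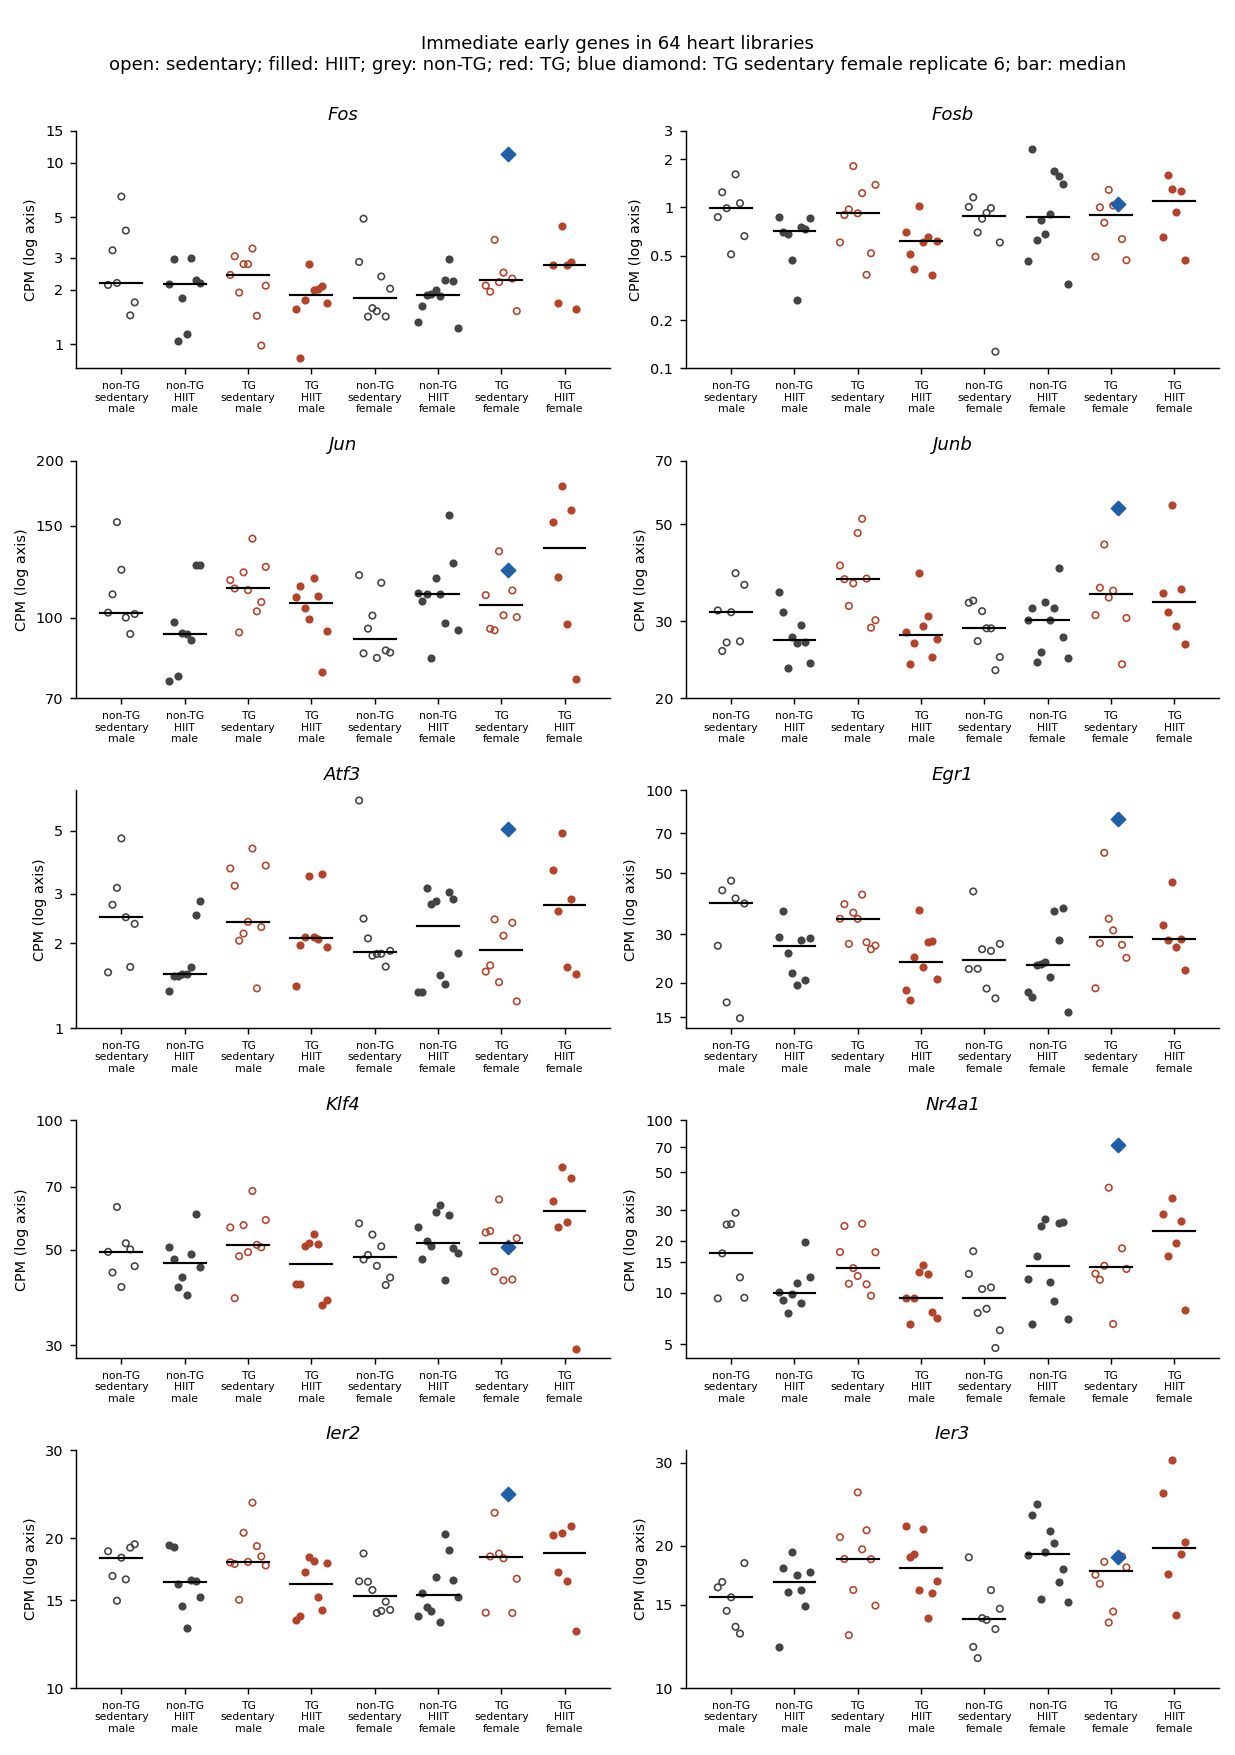
CPM on a log axis for each of the 10 members in the 64 libraries, by group (open points sedentary, filled HIIT; grey nTG, red TG; bar, median). The blue diamond, TG sedentary female replicate 6, is the highest point of all 64 for Fos (11.21 CPM), Egr1 (78.9 CPM), Nr4a1 (71.6 CPM) and Ier2 (24.6 CPM).

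TG HIIT females had the highest median of the 8 groups for 8 of the 10 members, all but Junb and Egr1, in a group of 6 libraries with wide spread. Several of the 8, though not Klf4 and Ier3, rise and fall with Fos past the threshold, as given below. They are thus not 8 separate observations. Fos was at 1.55 to 4.49 CPM (median 2.73) in TG HIIT females and at 1.42 to 4.91 CPM (median 1.80) in nTG sedentary females, the lowest group by median. Jun was at 76.4 to 178.4 CPM (median 136.1) in TG HIIT females and at 83.7 to 120.6 CPM (median 90.9) in nTG sedentary females. For both genes the TG HIIT female range covered most or all of the other one.

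Fosb was highest by median in TG HIIT females (0.470 to 1.60 CPM, median 1.1) and lowest in TG HIIT males (0.378 to 1.02 CPM, median 0.615). Klf4 was also highest in TG HIIT females (29.4 to 77.9 CPM, median 61.6) and lowest in TG HIIT males (37.1 to 54.4 CPM, median 46.4). Atf3 ran from 1.55 to 4.93 CPM (median 2.73) in TG HIIT females, and its lowest group was nTG HIIT males at 1.35 to 2.83 CPM (median 1.56). The highest and lowest groups overlapped for each of the 3 genes. Egr1 was highest in nTG sedentary males, at 14.9 to 46.99 CPM (median 38.8), and lowest in nTG HIIT females, at 15.6 to 37.5 CPM (median 23.3), so that the library with the least Egr1 of all 64 lay in the group with the highest median. Ier2 was at 13.01 to 21.1 CPM (median 18.7) in TG HIIT females and at 14.1 to 18.6 CPM (median 15.3) in nTG sedentary females. These group orders are descriptions, and the comparisons that the design allows follow below.

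To separate single libraries from group effects, each library was set against the median of the other libraries of its group. A member was called raised when it was at least 2-fold above that median, and a library was called a burst when at least 5 of the 10 members were raised. No library met that rule. Of the 640 values, 16 were raised, 2.5% against 0.852% over all genes, and 21 were lowered by the same factor, 3.28% against 1.48%. The raised values lay in 12 libraries, and 2 libraries had more than 1 of them. Nr4a1 was raised in 8 libraries and lowered in 7, whereas Jun, Junb, Klf4, Ier2 and Ier3 were raised in none. With these members steady, the burst rule needed Fos, Fosb, Atf3, Egr1 and Nr4a1 all raised at once, so it could hardly be met.

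The library with the most raised members was TG sedentary female replicate 6, with 4 of 10, beside 1.03% of all genes raised in it. Nr4a1 was at 71.6 CPM there, and the other 7 libraries of the group were between 6.57 and 40.7 CPM. Fos, a partner of the AP-1 dimer and the classical immediate early gene, was at 11.21 CPM, with the others between 1.52 and 3.76 CPM. Atf3, a stress-induced repressor, was at 5.07 CPM, with the others between 1.25 and 2.43 CPM. Egr1, a zinc finger factor, was at 78.9 CPM, with the others between 19.1 and 59.4 CPM. The 4 genes were 5.20-fold, 5.03-fold, 2.99-fold and 2.83-fold above the median of the others, in that order. Junb and Ier2 were also the highest of the group there, 1.60-fold and 1.35-fold above the median, and 7 of 10 members were highest in it.

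Immediate early genes outside the 10 members were also counted in that library, with no test, where 1.03% of all genes were raised. Of 24 genes for signalling and RNA decay, 2 were raised, namely Ptgs2 (cyclooxygenase 2) at 2.16 CPM against 0.359 to 1.01 CPM and Btg2 (an antiproliferative factor) at 53.8 CPM against 19.3 to 30.9 CPM, and 11 were the highest of the group. Of 15 other immediate early transcription factors 0 were raised and 6 were the highest, with Egr2 at 1.98-fold of the median of the others. Junb, at 1.60-fold, and 5 other members were below Egr2, Sik1, Nr4a3, Egr3 and Nr4a2 in this ratio. The library's depth of 42.4 M counts and its mitochondrial share of 15%, the lowest of its group, were within the range of all 64 libraries. Its marker sums for cardiomyocytes, endothelium, macrophages, smooth muscle and blood, and its heat shock genes, lay within the range of the other 7 libraries. The 4 neutrophil markers in the table summed to 4.98 CPM, with the others at 1.64 to 6.47 CPM, and 1 of the 4 was raised. The 6 fibroblast markers summed to 1029 CPM, above the others at 782.9 to 1009 CPM, and 0 of the 6 was raised. The part of these values in the rise of Fos and Nr4a1 was not tested.

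**Figure D2:**
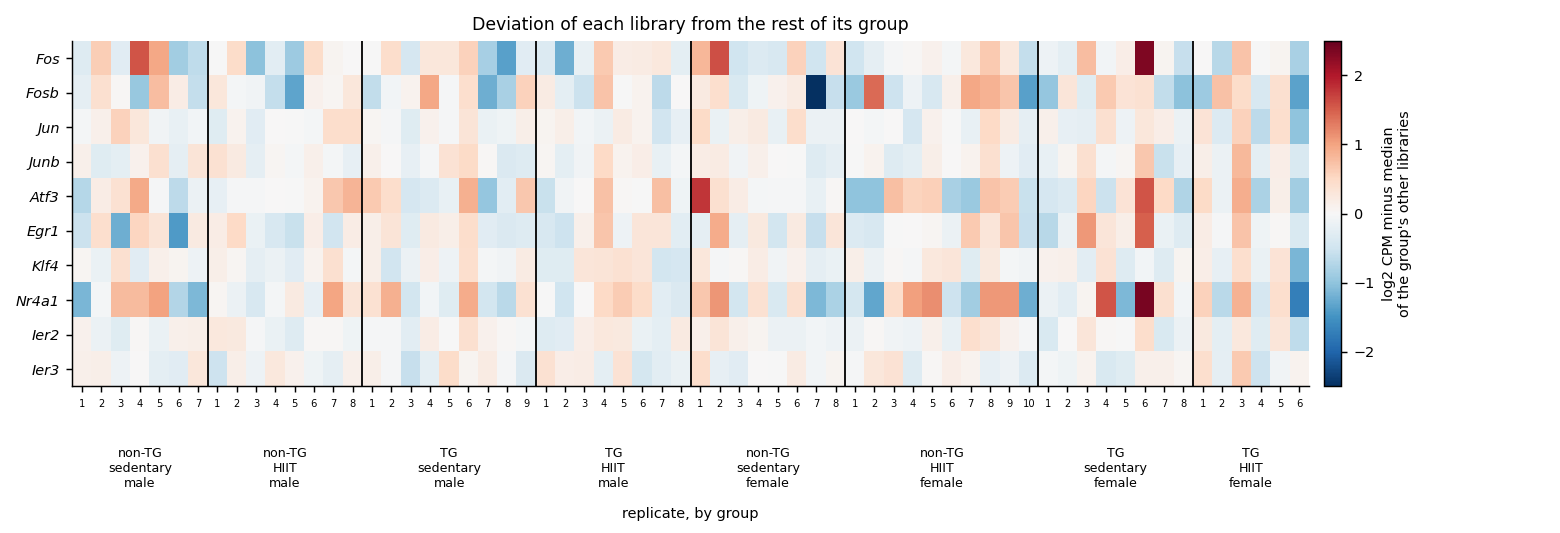
Deviation of each library (columns, by group and replicate) from the median of the other libraries of its group, in log2 CPM, for the 10 members (rows). Raised values are scattered over Fos, Fosb, Atf3, Egr1 and Nr4a1, and TG sedentary female replicate 6 is the column in which 4 members are raised.

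TG HIIT female replicate 3 had 0 members raised but all 10 above the median of the others, with a median deviation of 0.69 in log2 CPM, beside 9 of 10 and 0.56 in TG sedentary female replicate 6. These were the 2 libraries that met the burst rule at 1.5-fold in place of 2-fold. Raised values elsewhere came singly or in pairs. Fos was raised in nTG sedentary male replicate 4 at 6.50 CPM and in nTG sedentary female replicate 2 at 4.91 CPM, the latter with Nr4a1 at 17.4 CPM. Atf3 was raised in nTG sedentary female replicate 1 at 6.40 CPM, where no other member was. Nr4a1 alone was raised in 4 of the 10 nTG HIIT female libraries, replicates 4, 5, 8 and 9, and lowered in replicates 2 and 10, so this group's spread did not come from 1 library. TG HIIT female replicate 6 was low in 3 members, Fosb, Klf4 and Nr4a1.

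Within groups, several members rose and fell together across the 64 libraries. Taking each library's log2 CPM minus its group mean, Fos correlated with Egr1 at Pearson's r = 0.784 and Spearman's rho = 0.782, with a permutation p of 1e-05, the smallest that 100000 permutations can give, and an adjusted p of 3.5e-05 over 14 relations. Without the 2 libraries farthest from the median of Fos, r was 0.731, and it was 0.715 in males and 0.841 in females. Fos and Nr4a1 had r = 0.651 and rho = 0.627 (permutation p = 1e-05, adjusted 3.5e-05), and r = 0.571 without the 2 farthest libraries. Thus the link of Fos with both genes remained without TG sedentary female replicate 6, which was 1 of the 2. Fos and Junb had r = 0.639 and rho = 0.586, and Fos and Atf3 r = 0.627 and rho = 0.607, each with the same permutation p and adjusted p.

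Ier3, which encodes a short-lived protein that modulates survival signals, had no relation with Fos past the threshold: r was 0.108 and rho 0.107, with a permutation p of 0.395 and an adjusted p of 0.425. It was -0.064 in males and 0.26 in females. Klf4, a factor of vascular and endothelial cells among others, had r = 0.201 and rho = 0.233 (permutation p = 0.128, adjusted p = 0.179). Ier2 had r = 0.522 (rho 0.461; permutation p = 4e-05, adjusted p = 0.000112), with r = 0.295 in males and 0.694 in females. Fosb had r = 0.407 (rho 0.473; permutation p = 0.00076, adjusted p = 0.00177) and Jun, the partner of Fos in AP-1, r = 0.334 (rho 0.355; permutation p = 0.00795, adjusted p = 0.0124). Relations with Fos were thus strongest for Egr1, Nr4a1, Junb and Atf3 and near 0 for Ier3.

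**Figure D3:**
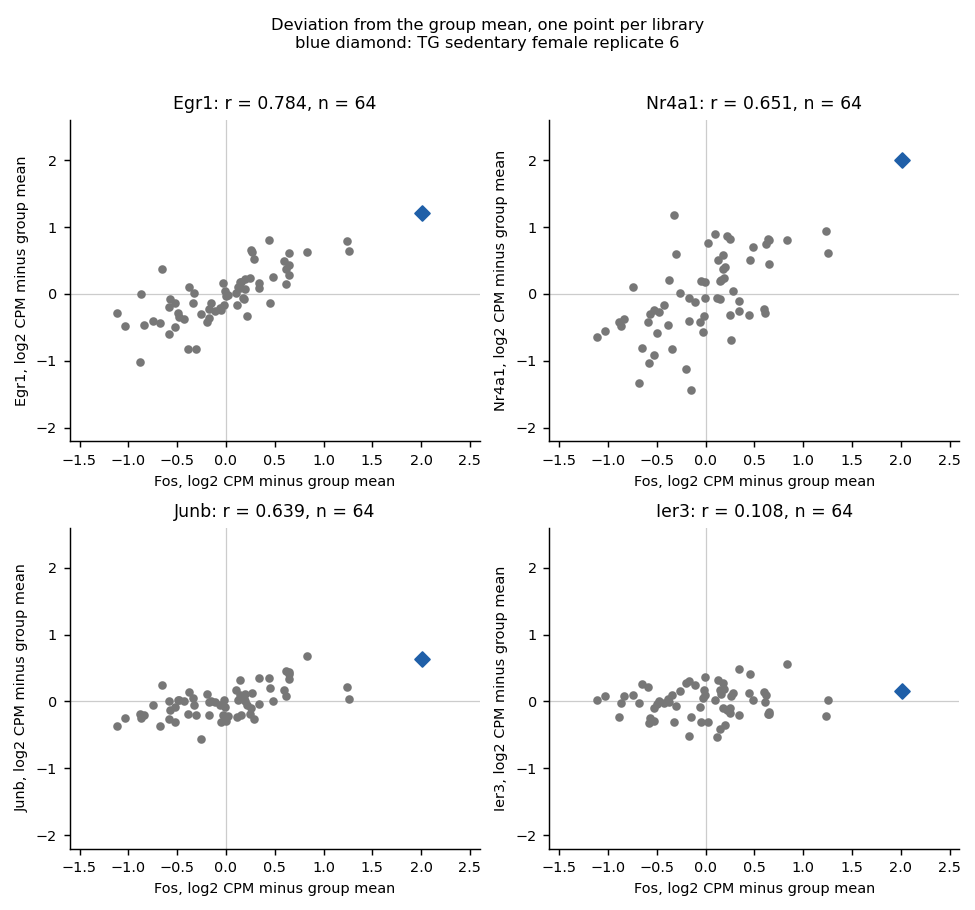
Log2 CPM minus the group mean for Fos (x axis) against Egr1, Nr4a1, Junb and Ier3 (y axes), 1 point per library, n = 64. The points rise together for Egr1 (r = 0.784), Nr4a1 (r = 0.651) and Junb (r = 0.639) and form a flat band for Ier3 (r = 0.108); the blue diamond is TG sedentary female replicate 6.

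The mitochondrial share and the heat shock genes moved with the mean of the 10 members within groups. The mitochondrial share of counts had r = -0.372 and rho = -0.343 (permutation p = 0.00399, adjusted p = 0.00698), and r = -0.349 without the 2 farthest libraries. The 11 heat shock genes had r = 0.447 and rho = 0.442 (permutation p = 0.00102, adjusted p = 0.00204), and r = 0.368 without the 2 farthest. Library size (r = 0.161, rho = 0.158; permutation p = 0.237, adjusted p = 0.302), blood genes (r = 0.095, rho = 0.159; permutation p = 0.484, adjusted p = 0.484) and library number (r = -0.127, rho = -0.113; permutation p = 0.345, adjusted p = 0.403) did not pass the threshold. The part of any of them in the group results was not tested. Library number was centred within sex.

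The genes whose deviations followed the mean of the 10 members most closely, among genes with a mean of at least 50 counts, were Sik1 (r = 0.809), Egr3 (0.792), Fosl2 (0.790), Btg2 (0.786) and Egr2 (0.741), over 64 libraries and as a description. Otud1 (0.706), Dusp1 (0.695) and Arid5a (0.690) came next. Sik1 is a kinase induced by cyclic AMP. Without TG sedentary female replicate 6, Sik1 was at 0.791 and Egr3 at 0.791.

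The comparison of genotypes asked how the transgene changed these genes in each sex and training state. Averaged over the 4 strata, 3 of the 10 members were higher in TG hearts and 0 were lower, by edgeR's quasi-likelihood test with Benjamini-Hochberg adjustment over all genes at 0.05. Of all genes 39% were called in this comparison in either direction and 18.5% as higher. Their median log2 fold change was 0.147, beside 0.007 over all genes, and 9 of 10 were positive. The 3 members that rose were Junb, Ier3 and Ier2, which are among the steady ones.

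Junb, a subunit of AP-1 that can oppose Jun, was measured in every group. In nTG males it ran from 25.7 to 38.7 CPM (median 31.5) in sedentary and from 23.5 to 35 CPM (median 27.3) in HIIT mice. In TG males it ran from 29.02 to 51.5 CPM (median 37.5) in sedentary and from 23.95 to 38.8 CPM (median 27.9) in HIIT mice. In females it ran from 23.2 to 33.5 CPM (median 28.9) in nTG sedentary, from 24.3 to 39.7 CPM (median 30.2) in nTG HIIT, from 23.9 to 54.6 CPM (median 34.7) in TG sedentary and from 26.7 to 55.4 CPM (median 33.2) in TG HIIT mice. The TG sedentary males were highest by median and the nTG HIIT males lowest, and all these ranges overlapped. Averaged over strata, Junb rose by 0.23 ± 0.064 (log2, SE; 95% interval 0.097 to 0.354; 1.17-fold) in TG hearts, with an edgeR adjusted p of 0.00342. Within strata it was 0.30 in sedentary males, 0.03 in HIIT males, 0.33 in sedentary females and 0.25 in HIIT females, and none of the 4 passed the threshold, with edgeR adjusted p from 0.0937 to 0.903.

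Ier3 was at 13.04 to 18.4 CPM (median 15.6) in nTG sedentary and 12.2 to 19.4 CPM (median 16.8) in nTG HIIT males. TG males were at 12.9 to 25.96 CPM (median 18.8) when sedentary and 14.04 to 22.1 CPM (median 17.9) after HIIT. Females were at 11.6 to 18.9 CPM (median 14) as nTG sedentary, 15.2 to 24.5 CPM (median 19.3) as nTG HIIT, 13.8 to 18.99 CPM (median 17.7) as TG sedentary and 14.3 to 30.4 CPM (median 19.8) as TG HIIT. The nTG sedentary groups of both sexes had the lowest medians, with overlap throughout. In TG hearts Ier3 rose by 0.20 ± 0.060 (95% interval 0.084 to 0.324; 1.15-fold; edgeR adjusted p = 0.00473), and 6 of 9 TG sedentary males were above all 7 nTG sedentary males. Ier2 rose by 0.12 ± 0.049 (95% interval 0.019 to 0.214; 1.08-fold; edgeR adjusted p = 0.0494), from group medians of 15.3 to 18.3 CPM in nTG and 16.2 to 18.7 CPM in TG mice. The call for Ier2 held in 28 of 64 fits that left out 1 library each, those for Junb and Ier3 in all 64. Ier2 was not called with the replicate block (0.115, edgeR adjusted p = 0.079) or with library number as a covariate (0.117, adjusted p = 0.0517).

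The remaining members did not pass in this comparison. Jun had a log2 difference of 0.13 ± 0.061 (edgeR adjusted p = 0.0824) and passed in 7 of the 64 fits without 1 library. Nr4a1 had 0.35 ± 0.17 (adjusted p = 0.0983), Egr1 0.20 ± 0.11 (adjusted p = 0.139) and Fos 0.13 ± 0.16 (adjusted p = 0.538). The interval for Fos, -0.181 to 0.443, leaves room for changes in either direction. Fosb, a partner of Jun like Fos, was at -0.03 ± 0.16.

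Beside these values stand markers of other cells that differed with genotype. All 6 fibroblast markers and all 6 macrophage markers were higher in TG hearts (edgeR, same threshold), with median log2 fold changes of 0.40 and 0.42. The fibroblast sum was 532.4 to 1109 CPM (median 657.0) in 33 nTG and 664.6 to 1421 CPM (median 871.4) in 31 TG libraries. The macrophage sum was 128.5 to 255.3 CPM (median 169.8) in nTG and 172.9 to 313.6 CPM (median 220.4) in TG libraries. Of 6 cardiomyocyte markers 5 were lower, with a sum of 55000 to 67540 CPM in nTG and 46350 to 61850 CPM in TG libraries. Of 7 blood genes 3 were lower, and of 11 heat shock genes 2 were higher and 5 lower. The median mitochondrial share was lower in TG than in nTG libraries in all 4 strata: 16.5% against 17.1% in sedentary males, 17.6% against 18.2% in HIIT males, 16.3% against 16.4% in sedentary females and 15.4% against 16.5% in HIIT females. These shares were not tested between genotypes, and their ranges overlapped. The part of all these values in the rise of Junb, Ier3 and Ier2 was not tested.

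In sedentary females 1 of 10 members, Nr4a1, was higher in TG hearts, where 4.37% of all genes were called. Nr4a1 was at 4.77 to 17.4 CPM (median 9.27) in the 8 nTG and at 6.57 to 71.6 CPM (median 14.02) in the 8 TG libraries. Of the TG libraries 3 lay above all nTG libraries, replicate 6 and replicate 4 (40.7 CPM) by the most, and the ranges overlapped. The log2 fold change was 1.29 ± 0.34 (2.44-fold, 95% interval 0.609 to 1.962), with an edgeR adjusted p of 0.0145. Without TG sedentary female replicate 6 it was 0.79 with an adjusted p of 0.164 (3.7% of all genes called), and it was called in the 15 other fits that left out 1 library of these groups, at 1.13 to 1.45. An exact rank-sum test over all genes, which a single high value moves only by its rank, gave a median difference of 0.61 and an adjusted p of 0.285, and called 0.842% of all genes. The call was also lost with limma voom with quality weights (0.841, adjusted p = 0.153) and in a fit of only the groups compared (1.292, edgeR adjusted p = 0.104).

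In the other 3 strata 0 members were called by edgeR, where 20.6% of all genes were called in sedentary males, 14% in HIIT males and 14.8% in HIIT females. At an unadjusted p below 0.05 there were 2 members in sedentary males, Junb and Ier3, beside 32.5% of all genes, and 0 in HIIT males and HIIT females, beside 27.1% and 28.8%. In sedentary females 5 of 10 members had such a p, namely Nr4a1, Egr1, Junb, Ier2 and Ier3, beside 16.4% of all genes. Each was the highest of the TG group in replicate 6, for Ier3 by little (18.99 beside at most 18.98 CPM). Nr4a1, Egr1, Junb and Ier2 also moved with Fos within groups, so these are not 5 separate observations. Leaving out 1 library brought in Ier3 in sedentary males in 3 fits (without TG replicate 3 or 9 or nTG replicate 7), Junb there without nTG replicate 5, and Klf4 in HIIT females without TG replicate 6. The fitted values of Fos were -0.40 and -0.17 in sedentary and HIIT males and 0.61 and 0.48 in sedentary and HIIT females, with none called. Both sedentary values moved without 1 library, to -0.10 without nTG sedentary male replicate 4 and to 0.05 without TG sedentary female replicate 6. Without nTG sedentary female replicate 2, also high in Fos, the value in sedentary females was 0.87 (edgeR adjusted p = 0.107). The difference of the group medians of log2 CPM had the other sign in sedentary males, at 0.15. Whether the genotype effect differed between sexes was not tested.

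**Figure D4:**
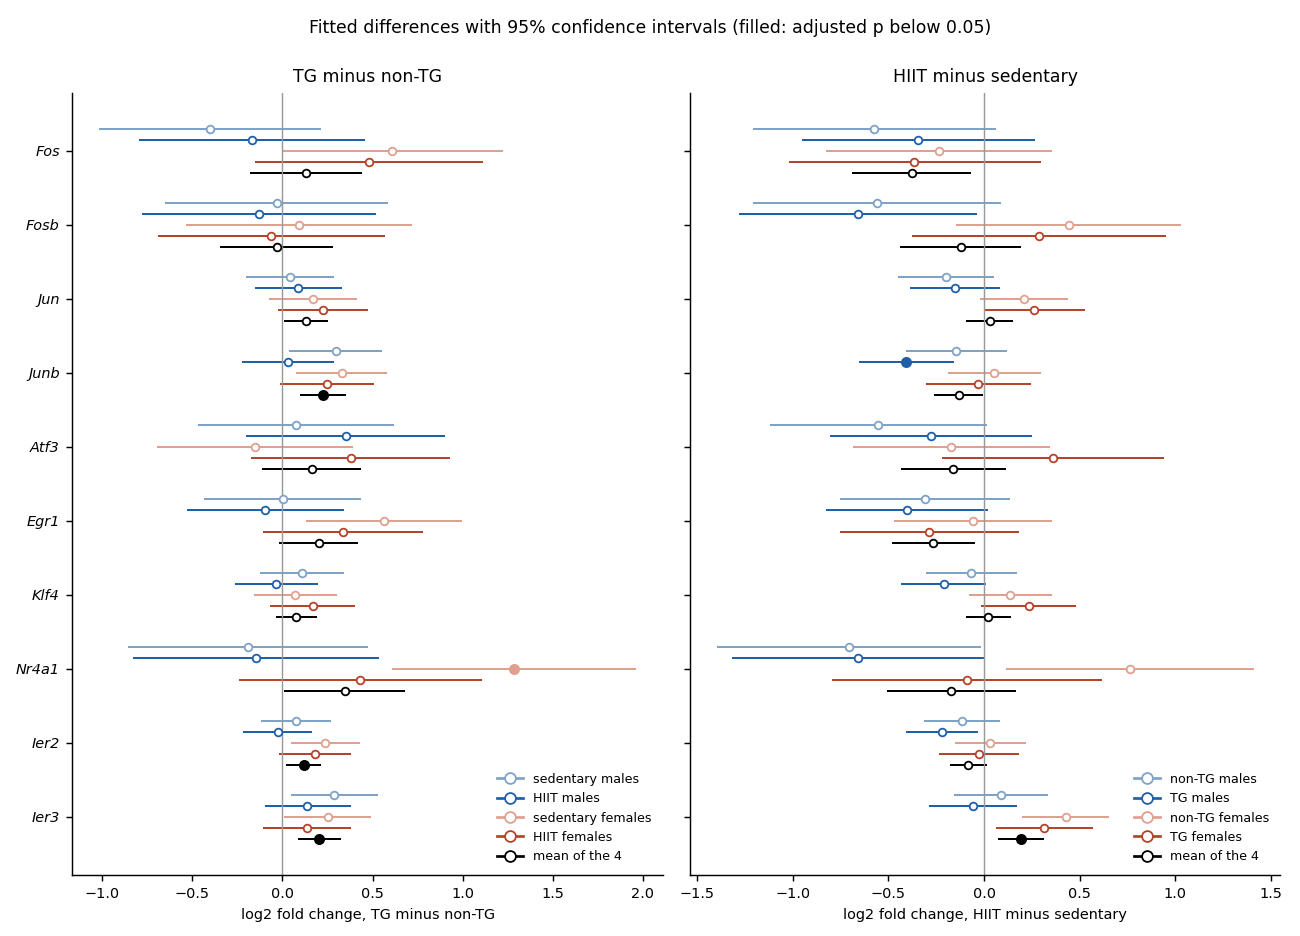
Fitted log2 fold changes with 95% confidence intervals for the 10 members, TG minus nTG (left) and HIIT minus sedentary (right), in each of the 4 strata and averaged over them (black). Filled points have an edgeR adjusted p below 0.05: Junb, Ier2 and Ier3 in the mean of genotypes, Nr4a1 in sedentary females, Junb in trained against sedentary TG males and Ier3 in the mean of training.

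The comparison of training states asked how HIIT changed the same genes. In TG males 1 of 10 members was lower after HIIT and 0 were higher, where 18% of all genes were called (7.6% lower). All 10 members were nonetheless negative, with a median log2 fold change of -0.309 beside 0.0 over all genes. In nTG males 1 of 10 was positive, with a median of -0.254, so the direction was not particular to TG males. Several members move together in a library, so the 10 signs are not 10 separate observations. Junb, whose values are given above, fell by 0.41 ± 0.12 on the log2 scale (0.754 of the sedentary level, edgeR adjusted p = 0.0172), and 5 of 8 HIIT libraries lay below all 9 sedentary ones. Without TG sedentary male replicate 6, the highest of its group at 51.5 CPM, the value was -0.351 and the adjusted p 0.0514. That library had all 10 members above the median of the others and the highest heat shock deviation of its group (0.371 in log2 CPM). The 16 other fits that left out 1 library kept the call, and the exact rank-sum test did not (-0.426, adjusted p = 0.0537).

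With Junb, 4 of 10 members had an unadjusted p below 0.05 in TG males, beside 31.9% of all genes. The other 3, Ier2 (edgeR unadjusted p = 0.0234), Fosb (0.0378) and Nr4a1 (0.0497), did not pass adjustment, nor did Egr1 (unadjusted p = 0.0602). Ier2 passed without TG HIIT male replicate 4 (-0.257, edgeR adjusted p = 0.0467). Nr4a1 ran from 9.59 to 25.1 CPM (median 13.9) in sedentary and from 6.56 to 14.4 CPM (median 9.26) in HIIT mice. Its log2 difference was -0.66 ± 0.33 (edgeR adjusted p = 0.156), with 5 of 8 HIIT libraries below all sedentary ones. Egr1 ran from 26.5 to 41.8 CPM (median 34.2) in sedentary and from 17.3 to 36.9 CPM (median 23.8) in HIIT mice, a difference of -0.41 ± 0.21 (adjusted p = 0.178). Fosb was at -0.66 ± 0.31 (adjusted p = 0.129) and Ier2 at -0.22 ± 0.094 (adjusted p = 0.0941). These groups overlapped for every one of these genes. A fit of only these 2 groups called Egr1 (-0.407, adjusted p = 0.0414) and Nr4a1 (-0.663, adjusted p = 0.0307) beside Junb, with 16.6% of all genes called.

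Markers of several cell types also moved in TG males. Of 7 blood genes 6 were lower after HIIT, with sums of 290.7 to 4631 CPM (median 549.8) in sedentary and 260.1 to 555.9 CPM (median 384.9) in HIIT mice; the highest was TG sedentary male replicate 5. Without that library Junb was at -0.368 with an edgeR adjusted p of 0.0415. Of 6 macrophage markers 4 were lower, with sums of 182.0 to 313.6 CPM (median 260.8) in sedentary and 176.4 to 310.9 CPM (median 202.4) in HIIT mice. Of 6 endothelial markers 3 were lower. Of 6 fibroblast markers 1 was lower, with sums of 669.0 to 1138 CPM (median 995.7) in sedentary and 664.6 to 1421 CPM (median 770.0) in HIIT mice. Of 6 smooth muscle and pericyte markers 1 was lower, and of 11 heat shock genes 2 were higher and 1 lower. Of 6 cardiomyocyte markers 2 were higher and 0 lower, with sums of 49880 to 59360 CPM (median 52390) in sedentary and 46350 to 61850 CPM (median 58640) in HIIT mice. The mitochondrial share had a median of 16.5% in sedentary and 17.6% in HIIT mice. The part of these in the fall of Junb was not tested. The sedentary TG males also enter the comparison of genotypes in sedentary males, in which Junb was at 0.30, so the 2 values share those 9 libraries.

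**Figure D5:**
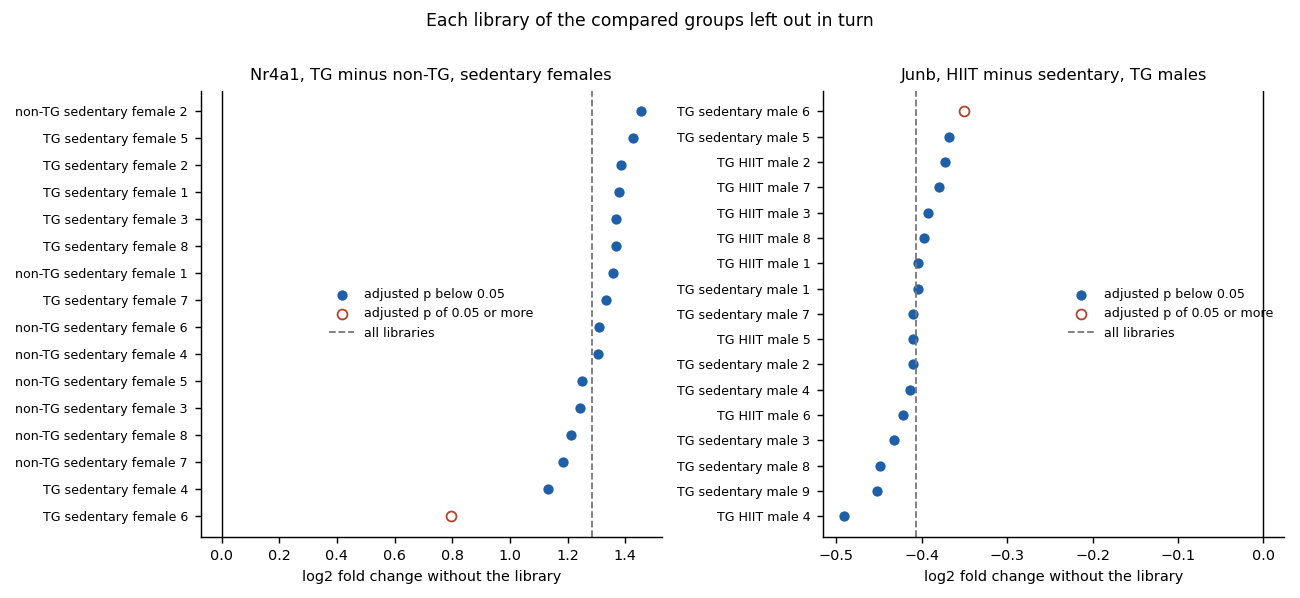
Log2 fold change of Nr4a1 (TG minus nTG, sedentary females) and Junb (HIIT minus sedentary, TG males) with each library of the compared groups left out in turn; the dashed line is the value with all libraries. The open points, without TG sedentary female replicate 6 (0.794) and without TG sedentary male replicate 6 (-0.351), have an adjusted p of 0.05 or more.

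In the other strata of training 0 members were called by edgeR. In nTG males 0.0% of all genes were called, and Nr4a1 alone had an unadjusted p below 0.05 (log2 difference -0.71 ± 0.35), beside 5.91% of all genes. In nTG females 0.148% of all genes were called, and 2 members had an unadjusted p below 0.05, beside 14.2% of all genes. Ier3 was at 0.43 ± 0.11 (edgeR adjusted p = 0.0964), with all 10 HIIT libraries above the sedentary median and 6 of 10 above all 8 sedentary libraries, and it passed without nTG HIIT female replicate 4 (0.461, adjusted p = 0.0487). Nr4a1 was at 0.76 ± 0.32 (adjusted p = 0.262), from 4.77 to 17.4 CPM in sedentary and 6.61 to 26.9 CPM (median 14.2) in HIIT mice. The nTG sedentary females, the group with the lowest medians of Ier3 and, but for TG HIIT males, of Nr4a1, are shared by this comparison and that of genotypes in sedentary females. In TG females 0.0% of all genes were called; 2 members had an unadjusted p below 0.05, beside 3.58% of all genes, Ier3 at 0.32 ± 0.13 and Jun at 0.26 ± 0.13, with an edgeR adjusted p of 1 for both.

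Averaged over the 4 strata, 1 of 10 members was higher after HIIT, where 3.98% of all genes were called. That gene was Ier3, at 0.19 ± 0.060 (95% interval 0.074 to 0.314; 1.14-fold; edgeR adjusted p = 0.0499), with values of 0.09, -0.06, 0.43 and 0.32 in nTG males, TG males, nTG females and TG females. The call held in 18 of 64 fits that left out 1 library, with adjusted p from 0.0278 to 0.1, the highest without TG HIIT female replicate 3. It was lost with DESeq2's size factors (edgeR adjusted p = 0.0541) and with edgeR's robust fit (0.0548). Fos (-0.38 ± 0.16, adjusted p = 0.147), Egr1 (-0.27 ± 0.11, adjusted p = 0.148) and Junb (-0.13 ± 0.064, adjusted p = 0.23) were on the other side of 0 and did not pass. The fitted value of Fos was negative in all 4 strata, but in females the sign rested on 1 library each. In nTG females it was -0.24, and 0.02 without nTG sedentary female replicate 2. In TG females it was -0.36, and 0.20 without TG sedentary female replicate 6. The difference of the group medians of log2 CPM, used with the exact rank-sum test, was 0.07 in nTG and 0.28 in TG females. In nTG males the fitted value was -0.58, and -0.28 without nTG sedentary male replicate 4.

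For sex, 0 of 10 members were called by edgeR, where 16.6% of all genes were. All male libraries were numbered before all female ones, so sex and library order cannot be told apart. At an unadjusted p below 0.05 there were 2, beside 28.9% of all genes, both higher in females, Nr4a1 at 0.35 ± 0.17 (adjusted p = 0.149) and Klf4 at 0.12 ± 0.058 (adjusted p = 0.141). Klf4 passed without TG HIIT female replicate 6 (0.159, adjusted p = 0.0195), the library in which it was at 29.4 CPM beside 56.5 to 77.9 CPM in the 5 others. For the question whether training acted differently by genotype, 0 members and 0.0% of all genes were called in males and in females, and 0 members had an unadjusted p below 0.05 in either, beside 14.8% and 6.46% of all genes. Nr4a1 had the widest such interval in females, -1.812 to 0.107 around -0.85.

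Other genes of the same response also differed with genotype. Of 15 other immediate early transcription factors in the table (Fosl1 and Egr4 were not in it), 10 were higher and 0 lower in TG hearts over the 4 strata, with a median log2 fold change of 0.194. Egr3 rose by 0.83 ± 0.12 (edgeR adjusted p = 6.86e-08) and Egr2 by 0.78 ± 0.13 (adjusted p = 1.2e-06), both relatives of Egr1, whose own value was 0.20 ± 0.11. Myc rose by 0.44 ± 0.088 (adjusted p = 3.47e-05) and Klf6 by 0.17 ± 0.033 (adjusted p = 3.57e-05). Of 24 genes for signalling and RNA decay, 8 were higher and 1 lower, the latter Rgs2, a brake on Gq signalling, at -0.45 ± 0.078 (adjusted p = 3.72e-06). Hbegf, a ligand of the EGF receptor, rose by 0.26 ± 0.049 (adjusted p = 1.69e-05). With the members, 21 of 49 genes were higher and 1 was lower, against 18.5% of all genes higher.

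The same lists in TG males after HIIT had 0 of 49 genes higher, where 1750 of 16913 genes were called higher. Of the 49, 5 were lower, Junb with Ier5l, Sik1, Nfkbiz and Egr2, against 7.6% of all genes lower. Egr2 fell by 0.67 ± 0.25 on the log2 scale (edgeR adjusted p = 0.0469) and Sik1 by 0.47 ± 0.17 (adjusted p = 0.0404). Of the 49 genes 5 were above 0, beside 50.0% of all genes, and the median was -0.212. In nTG males 10 of the 49 were above 0, with a median of -0.108. In sedentary males 9 of the 15 other transcription factors were higher in TG hearts, beside 9.39% of all genes, among them Egr3 at 1.04 ± 0.24 (adjusted p = 0.00126) and Egr2 at 1.05 ± 0.26 (adjusted p = 0.00224), where 0 of the 10 members was called. The median log2 fold change of the 15 was 0.333. The 24 signalling and RNA-decay genes had 2 higher and 2 lower there. In the other strata fewer of the 15 were called higher: 2 in HIIT males (5.65% of all genes), 2 in sedentary females (1.58%) and 4 in HIIT females (5.37%), with 0 lower in each. Whether the strata differ in this was not tested. In sedentary males all 6 fibroblast and all 6 macrophage markers were higher (medians 0.629 and 0.702), and 4 of 6 cardiomyocyte markers were lower. The fibroblast sum was 586.1 to 818.2 CPM (median 636.7) in nTG and 669.0 to 1138 CPM (median 995.7) in TG sedentary males. The macrophage sum was 139.2 to 186.1 CPM (median 165.7) and 182.0 to 313.6 CPM (median 260.8), and the cardiomyocyte sum 56140 to 67090 CPM (median 61840) and 49880 to 59360 CPM (median 52390). The part of these in the list's values was not tested. Whether the lists differ from the members beyond the spread between genes was not tested.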

How the data were processed

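Per the labels, total RNA of the heart was depleted of ribosomal RNA before library preparation. The deposited gene table holds raw counts per Ensembl gene, and the deposited lncRNA table holds expected counts; cutadapt 2.3, STAR 2.7.8a and RSEM 1.3.3 and the builds GRCm38 and mm10 are named in the submitters' processing notes. Whether counting used strand is not given in the sources used here. Columns were joined through both tables (log2 CPM, pseudocount 0.5, mean of at least 20 counts), and 16879 of 16913 identifiers had a symbol in GENCODE M21. edgeR 4.0.16 (R 4.3.3) fitted 8 group means over 64 libraries after TMM scaling, with filterByExpr, which kept all genes, and the quasi-likelihood test, called at a Benjamini-Hochberg adjusted p under 0.05. There were 13 comparisons: 8 of 2 groups, 3 means over 4 strata and 2 interactions. CPM used TMM-scaled sizes, and log2 CPM a prior count of 2. Alternatives were DESeq2 1.42.0, limma 3.58.1, an exact rank-sum test and those listed in the closing section. The fit was tested on simulated data. No 2 libraries of a group agreed within sampling noise (chi-square per degree of freedom at least 9.39). Within other lists, the genes named are those of smallest p among those called, up to 6. The members and lists were chosen with earlier results of these data known.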

Additional observations from a re-analysis of the deposited data

Results flagged for a closer look

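A library was singled out where its log2 CPM stood apart from the rest of its group by Dixon's test at the 95% level. Over 80 pairs of member and group, 5 were singled out, beside 4 that chance gives. Fos in TG sedentary females was at 11.21 CPM in replicate 6, with the others between 1.52 and 3.76 CPM. Atf3 in the same library was at 5.07 CPM, with the others between 1.25 and 2.43 CPM. Atf3 in nTG sedentary females was at 6.40 CPM in replicate 1, with the others between 1.65 and 2.44 CPM. Fosb in nTG sedentary females was low in replicate 7 at 0.127 CPM, with the others between 0.606 and 1.16 CPM. Klf4 in TG HIIT females was low in replicate 6 at 29.4 CPM, with the others between 56.5 and 77.9 CPM. The libraries TG sedentary female replicate 6 and nTG sedentary male replicate 4, high in Fos, were also those farthest from the median of Fos in the correlations.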

How the results depend on the processing

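With the gene columns by their names in place of the join, 0 members were called in the mean of genotypes, in sedentary females, in TG males after HIIT and in the mean of training, the median share of variance between groups was 10.8%, and Ier3 had the other sign in the mean of genotypes at -0.059. The exact rank-sum test called 0 members in genotypes of sedentary females and 0 in TG males after HIIT (Junb -0.426, adjusted p = 0.0537). A fit of only the groups compared called 0 in sedentary females (Nr4a1 1.292, adjusted p = 0.104) and 3 in TG males. limma voom with quality weights called 1 in nTG females after HIIT, Ier3 at 0.465, and in sedentary females Junb (0.384, adjusted p = 0.0327) in place of Nr4a1 (0.841, adjusted p = 0.153). DESeq2's Wald test and limma voom called 0 members wherever edgeR did, except limma voom in nTG females. Genes that DESeq2's own filter leaves without an adjusted p were counted as not called. DESeq2's size factors and edgeR's robust fit called 0 in the mean of training (Ier3 adjusted p = 0.0541 and 0.0548). A burst at 1.5-fold was met by 2 libraries, TG HIIT female replicate 3 and TG sedentary female replicate 6, and at 3 members by 1; no library met the rule as used, so the planned fits without all such libraries had none to leave out, and both were left out singly. Without 1 library each, the members called ran from 0 to 1 for genotype in sedentary males, sedentary females and HIIT females, from 2 to 4 in the mean of genotypes, from 0 to 2 for training in TG males, and from 0 to 1 for training in nTG females, for the mean of training and for sex; in the other comparisons they stayed at 0. Over 205 pairs of libraries with the same replicate number, the correlation of deviations ran from -0.243 to 0.270 (median 0.010), and 24 were over 0.1. Of 64 libraries 10 correlated best with their own number. No value by chance was computed, so whether the number pairs libraries was not tested. With the replicate block, Ier2 in the mean of genotypes was at 0.115 with an adjusted p of 0.079, and the block changed no other member's call. With library number, centred within sex, as a covariate Ier2 was also not called there (0.117, adjusted p = 0.0517). The cause of these changes was not tested. Fosb had the fewest counts of the members, 6 to 136 per library.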
